A study of Bos taurus with 18 samples.

Results

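*bta-miR-184* was followed through all 18 small RNA libraries of the series, 9 from plasma exosomes (EX) and 9 from the RNA that circulates outside them (FC). It is 1 of the 1071 miRNAs listed. It was chosen from these data, because it was far richer in EX than in FC at 25 months of age and had 0 counts in EX at 30 months. Those values are therefore given as a description, and the main tests of *bta-miR-184* used libraries outside the choice. Tests of other miRNAs, and an alternative fit over all libraries, also include those of the choice.

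The plasma came from 3 Japanese Black steers, raised under the same feeding system and each bled at about 20, 25 and 30 months of age during fattening. Each plasma sample gave 1 EX and 1 FC library, so that each of the 6 combinations of fraction and age had 3 libraries, 1 per steer. No treatment was applied, and age goes together with the time on the fattening diet. The fractions were separated with a spin column kit, and nothing in the count tables measures the purity of either one.

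miRNAs are short RNAs that guide Argonaute proteins to messenger RNAs, mainly through the seed near their 5′ end. miR-184 is an old animal miRNA, found in flies as well as mammals, and in mammals it is best known from the cornea and lens of the eye, where it is among the most abundant miRNAs. It is also found in brain, testis, skin and the islets of the pancreas, and changes in its seed cause a hereditary eye disease in humans. In skin and cornea it has been described together with miR-205, whose action on a shared target it can oppose. Blood cells are not known as a main source of it.

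The mature sequence is shown because the count depends on reads matching it and because its seed (bases 2 to 8, in capitals in the first line) sets it apart. The capitals in the second line mark the letters GGAG.

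bta-miR-184, seed: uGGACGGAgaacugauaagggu
bta-miR-184, GGAG: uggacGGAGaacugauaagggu

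The miRNA is 22 nucleotides long with a GC content of 50%, against medians of 22 nucleotides and 47.6% over the table. Of the 1070 other mature miRNAs, 0 share its bases 2 to 8, 0 share bases 2 to 7 and 0 have the same sequence. Its counts are whole numbers in all 18 libraries, unlike those of miRNAs that share reads with others. In RefSeq (ARS-UCD2.0) the precursor gene *MIR184* lies within the long non-coding RNA gene *LOC112443131*, and its nearest protein-coding neighbours are *RASGRF1* and *ANKRD34C*. The study mapped its reads to a genome built on another assembly, so no coordinates are given.

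Abundance is given as CPM, the share of all miRNA counts of a library, scaled to a fixed total. These totals ran from 991354 to 2778618 in EX and from 3615234 to 12088735 in FC. CPM is a share of a library, so that fewer vesicles, less miR-184 per vesicle and more of other miRNAs cannot be told apart. The libraries at 30 months were the smallest on the whole, and they also held fewer miRNAs with a count, 258 to 296 in EX against 381 to 446 at the earlier ages, and 398 to 452 in FC against 582 to 694.

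In EX at 20 months, steers 1, 2 and 3 had 236, 333 and 147 counts of *bta-miR-184*, which is 115, 120 and 72.5 CPM. At 25 months the same steers had 1587, 330 and 304 counts, or 705, 180 and 125 CPM. At 30 months all 3 EX libraries had 0 counts. The level at 25 months was 6.13 times that at 20 months in steer 1, 1.5 times in steer 2 and 1.72 times in steer 3, so the order of the ages was the same in all steers.

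In FC the same miRNA was low at all ages. At 20 months the counts were 391, 120 and 133, or 32.3, 16.6 and 14.2 CPM. At 25 months they were 155, 124 and 126, or 16, 17.8 and 11.4 CPM. At 30 months they were 0, 21 and 109, or 0, 5.81 and 28.7 CPM. Steer 1 thus had no count in either fraction at 30 months, while steer 3 had its highest FC level at that age.

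**Figure D1:**
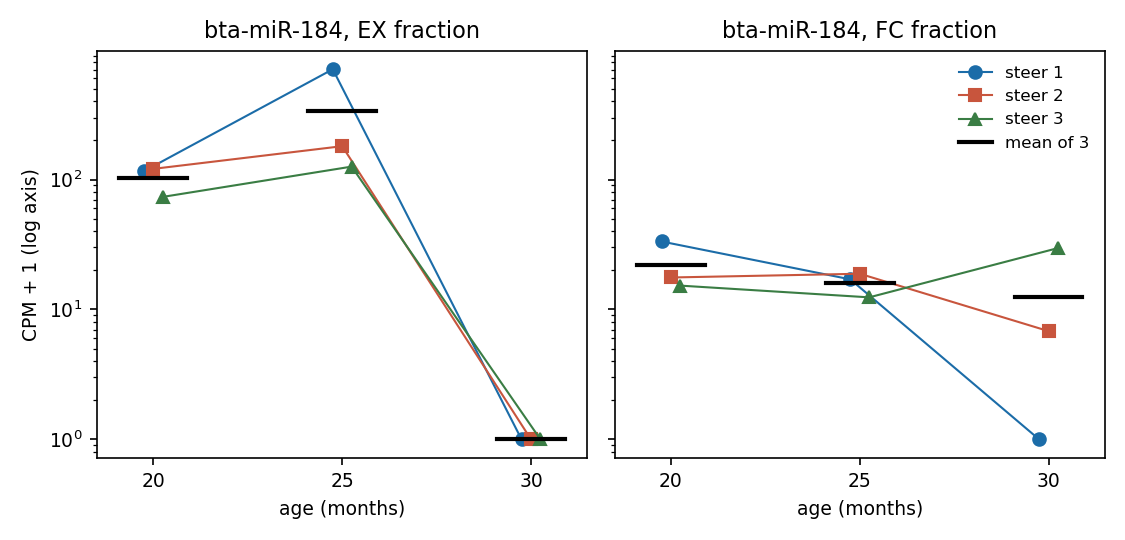
CPM + 1 of *bta-miR-184* (log axis) against age in months, with EX libraries on the left and FC libraries on the right. Markers joined by a line are the libraries of 1 steer and black bars are means of 3; in EX all 3 steers are higher at 25 than at 20 months and stand at 0 CPM (plotted at 1) at 30 months, whereas in FC the libraries lie between 0 and 32.3 CPM.

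Ordered by mean abundance, the 6 groups were EX at 25 months (336 ± 320 CPM, mean ± SD, n = 3), EX at 20 months (102 ± 26), FC at 20 months (21.1 ± 9.84), FC at 25 months (15.1 ± 3.32), FC at 30 months (11.5 ± 15.2) and EX at 30 months (0). The libraries of EX at 25 and at 20 months did not overlap, and neither did those of EX at 20 months and FC at 20 months. The 3 FC groups overlapped one another, and 1 FC library at 30 months stood at 0 with the EX libraries of that age. The SD of EX at 25 months is nearly as large as its mean because of steer 1: with steers 2 and 3 alone the mean was 152 CPM. For steer 1 the exact 95% interval of the count was 671 to 741 CPM, which covers counting error only and takes each count as a separate molecule.

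By mean CPM, *bta-miR-184* was number 153 of 531 counted miRNAs in EX at 20 months and number 107 of 505 at 25 months. In FC it was number 249 of 757, 253 of 727 and 270 of 530 at 20, 25 and 30 months. In EX at 30 months it had no rank.

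At 20 months *bta-miR-184* was higher in EX than in FC in all 3 steers, by 3.56-fold in steer 1, 7.21-fold in steer 2 and 5.09-fold in steer 3. The stated choice did not use the libraries of this age, but earlier results of these data were known when it was made. The log2 fold change was 2.31 with a standard error of 0.32 (edgeR quasi-likelihood test with steer as a block, FDR 0.0172 over 336 miRNAs). The fit sets this difference against the variation left after the steer block, which takes out differences in level between steers. Its estimate of that variation draws on all miRNAs tested. The exact two-sided sign-flip permutation test over the 3 steers gives p = 0.25, the smallest p that 3 steers allow. The call depended on the fit: the FDR was 0.0862 without the steer block, 0.0647 without steer 1, 0.105 without steer 2 and 0.648 when all 18 libraries shared 1 estimate of the spread, with log2 fold changes of 2.30, 2.64, 2.12 and 2.33.

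Of the 336 miRNAs tested at 20 months, 7 were higher in EX (2.08%) and 4 lower (1.19%), 3.27% in all. With the size factors of DESeq2 in the same fit the numbers were 6 and 0. By log2 fold change *bta-miR-184* stood in place 5, and the median of all 336 was −0.12. Above it stood *candidate-miR-24*, *candidate-miR-38* and *candidate-miR-40*, which the study proposes as miRNAs not yet annotated in cattle, and *bta-miR-11980* with a log2 fold change of 3.58 (standard error 0.79, FDR 0.0491). Next below it was *bta-miR-11978* at 1.36 (standard error 0.79, FDR 0.341), which did not pass. The other 2 miRNAs called higher in EX were *bta-miR-342* at 1.09, a miRNA of lymphocytes, and *bta-miR-205* at 1.01, the epithelial miRNA named above.

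These 6 other miRNAs had a count in all 3 EX libraries at 30 months. For example, *candidate-miR-40* had 3490 to 7173 CPM there and *bta-miR-205* 1339 to 2347 CPM. The lowest of the 6 in any of these libraries was *bta-miR-11980*, with 1.01 to 222 CPM. *bta-miR-184* was the only 1 of the 7 at 0, which its choice had fixed in advance.

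**Figure D2:**
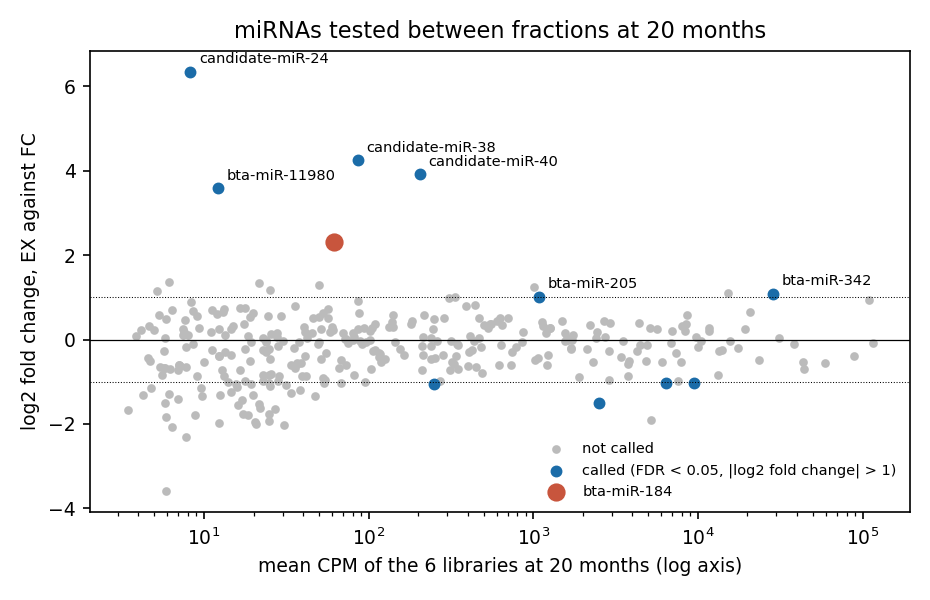
Log2 fold change of EX against FC at 20 months for the 336 miRNAs tested (edgeR), against the mean CPM of the 6 libraries on a log axis; dotted lines mark a log2 fold change of 1 in each direction. *bta-miR-184* (red) stands in place 5 from the top at 2.31, with most miRNAs near 0.

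At 25 months, the comparison that led to the choice, the EX level was 44 times the FC level in steer 1, 10.1 times in steer 2 and 11.0 times in steer 3. The ratio of the means was 22.3, and 10.4 without steer 1. In that comparison 1.83% of 328 miRNAs were called higher in EX and 0.61% lower (2.44% in all), which is given as background and from which nothing is read. The FC levels of the steers at this age lay within 11.4 to 17.8 CPM, so the ratios differ mainly through EX.

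At 30 months no ratio can be formed. In steer 1 both fractions were at 0, and in steers 2 and 3 FC had 5.81 and 28.7 CPM against 0 in EX. A count of 0 allows up to 1.51, 3.03 and 2.77 CPM in the EX libraries of steers 1, 2 and 3 (3 counts in the library), as far as counting alone goes. Against this floor, which holds only if each count is a separate molecule, the EX level at 25 months was at least 467-fold, 59.3-fold and 45.0-fold higher, and that at 20 months at least 76.2-fold, 39.6-fold and 26.2-fold higher.

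The counts most often seen in a library are therefore given beside this floor. In the EX libraries of steers 1, 2 and 3 at 30 months the most common whole counts lay around 84.5, 76.0 and 41.0, against 12 to 45 in the EX libraries at 20 and 25 months. In steer 3 this count was much the same at all ages, at 45, 41 and 41 at 20, 25 and 30 months. Over all 3 steers the most common count was 37.9 to 76.7 CPM in EX at 30 months and 5.58 to 22.2 CPM at the earlier ages. Carried over to the totals at 30 months, the level of 20 months would be 229, 119 and 78.5 counts, which is 2.71, 1.56 and 1.92 times the most common count. The level of 25 months would be 1402, 178 and 135 counts, or 16.6, 2.34 and 3.29 times. Taken 3 times, the most common count came to 127, 230.0 and 114 CPM. All 3 levels of 20 months and the level of steer 2 at 25 months lie below these values, while those of steers 1 and 3 at 25 months lie above. The part of these most common counts in the zeros was not tested.

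**Figure D3:**
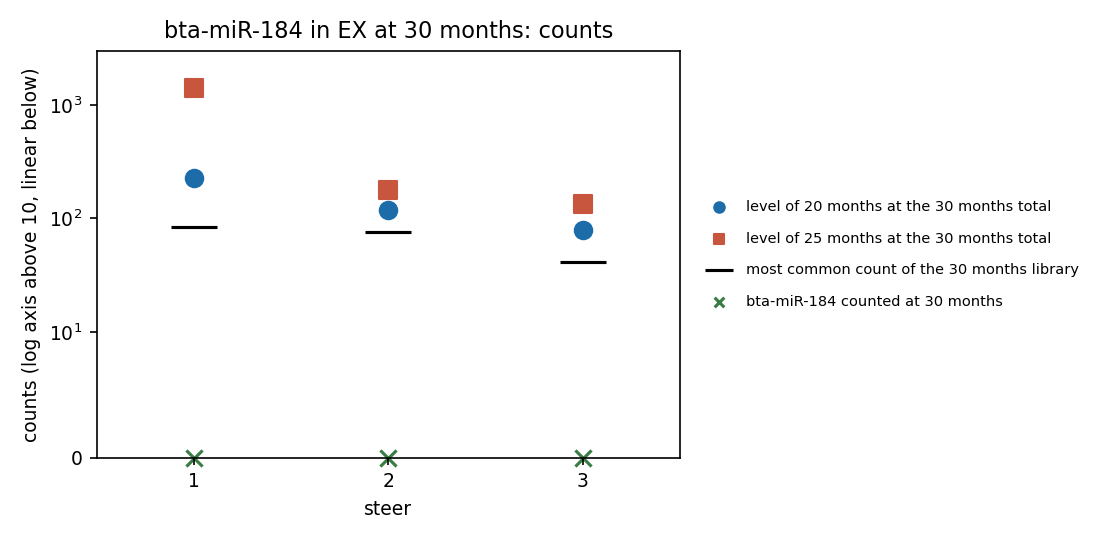
Counts of *bta-miR-184* for each steer in EX at 30 months, on an axis that is logarithmic above 10 and linear below. Circles and squares show the levels of 20 and 25 months carried over to the library total at 30 months, bars the most common whole count of the library (84.5, 76.0 and 41.0) and crosses the observed counts of 0.

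In FC at 30 months the most common counts were around 20, 30 and 20, within the range of 10 to 30 at the earlier ages. In CPM they were 4.11 to 8.30 at 30 months and 1.04 to 4.15 at the earlier ages. The 21 counts of steer 2 lie below its most common count and the 109 counts of steer 3 well above. For steer 1, the FC level of 20 months would be 158 counts at the 30 months total, or 7.88 times the most common count, where 0 were found.

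The zeros were set beside those of all other miRNAs in EX. Of 331 miRNAs with a mean of at least 5 CPM in EX at 25 months, 53 had 0 counts in all 3 EX libraries at 30 months (16%). With at least 20 CPM it was 13 of 232, and with at least 50 CPM 3 of 179. With at least 100 CPM it was 1 of 147, *bta-miR-184* itself. The same held with steers 2 and 3 alone, again 1 of 147. The values of EX at 30 months are part of the choice, so this is a description of how far the miRNA stands from the others. By the mean at 20 months, 2 of 158 miRNAs with at least 100 CPM were at 0, the other being *bta-miR-194* with a mean of 3755 CPM. It was counted in EX in steers 1 and 2 at 20 months and was already at 0 in steer 3 at 20 months and in all 3 steers at 25 months.

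Next to *bta-miR-184* among the miRNAs at 0 in all 3 EX libraries at 30 months were *bta-miR-1249* with a mean of 59.6 CPM in EX at 25 months, *bta-miR-132* with 58.3, *bta-miR-500* with 41.6 and *bta-miR-491* with 39.6. The mean of *bta-miR-184* was 5.64 times that of the first of these. At 25 months the FC means of these 4 were 84.8, 62.2, 34.8 and 39.3 CPM, so they were about as abundant in FC as in EX. Other miRNAs at 0 in these 3 libraries were also richer in EX at 25 months, at low levels. *bta-miR-2285ae* had 5.40 CPM in EX and 0.173 in FC, a ratio of 31.3 against 22.3 for *bta-miR-184*. *bta-miR-96*, of the photoreceptors, had 7.81 and 0.682 CPM, a ratio of 11.5. At 20 months *bta-miR-96* went the other way, with a mean of 0.327 CPM in EX and 2.80 in FC. *bta-miR-132*, which responds to nerve cell activity, and *bta-miR-491* each had 0 counts in 1 FC library at 30 months, that of steer 2, while *bta-miR-1249* and *bta-miR-500* had a count in all 3. No seed is shared among the 5, as their sequences show (seed in capitals).

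bta-miR-1249: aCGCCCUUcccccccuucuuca
bta-miR-132: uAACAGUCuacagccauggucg
bta-miR-500: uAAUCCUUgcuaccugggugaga
bta-miR-491: aGUGGGGAacccuuccaugagg

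**Figure D4:**
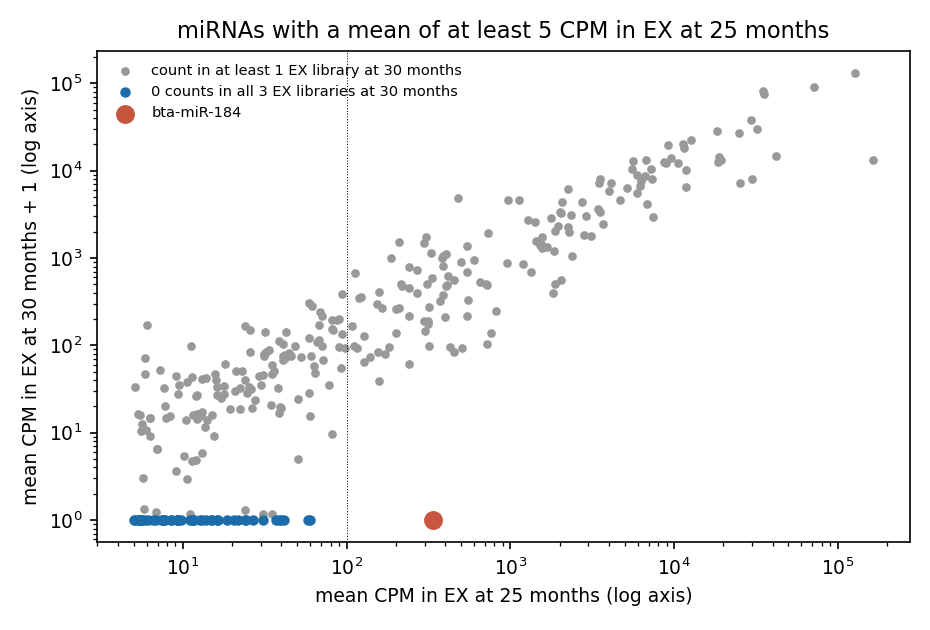
Mean CPM in EX at 30 months + 1 against mean CPM in EX at 25 months, both on log axes, for the 331 miRNAs with at least 5 CPM at 25 months. The 53 miRNAs at 0 in all 3 EX libraries at 30 months lie along the bottom, and *bta-miR-184* (red, 336 CPM at 25 months) is the one right of the dotted line at 100 CPM.

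In FC, neither the libraries at 20 months nor those at 30 months had been used for the stated choice, though earlier results of these data were known. From 20 to 30 months, *bta-miR-184* went from 32.3 to 0 CPM in steer 1, from 16.6 to 5.81 in steer 2 and from 14.2 to 28.7 in steer 3. Of the 3 steers 2 were thus lower and 1 higher at 30 months, and the groups overlapped. The log2 fold change was −2.06 with a standard error of 2.03 (edgeR quasi-likelihood test with steer as a block, FDR 0.537), and the exact two-sided sign-flip test of the difference in CPM gives p = 0.75. Of 337 miRNAs tested, 8 were higher (2.37%) and 14 lower (4.15%) at 30 months, 6.53% in all. Steers 1 and 3 pull this value apart: without steer 3 the log2 fold change was −4.11 (FDR 0.0146), and without steer 1, the library at 0, it was −0.21 (FDR 0.911).

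miRNAs of tissues in which miR-184 is known were looked at in the same libraries, beside miRNAs of blood cells and liver. All 42 listed miRNAs are in the table, and 29 were tested between EX and FC at 20 months. Of the 8 miRNAs of surface epithelium 1 was higher in EX, *bta-miR-205*, and 0 were lower, where 2.08% of all 336 were higher and 1.19% lower. It had 1463 CPM in EX and 712 in FC (log2 fold change 1.01, standard error 0.12, edgeR FDR 0.0113). At 25 months its log2 fold change was 0.71 with an FDR of 0.0570, and it did not pass. The median over the list was −0.04, against −0.12 over all miRNAs. *bta-miR-141* and the *bta-miR-200* members of this list, which keep epithelial cells epithelial, lay between −0.29 and 0.31. *bta-miR-429* lay at −0.40, *bta-miR-31* at −0.15, and *candidate-miR-30*, which the study equates with the skin miRNA miR-203a-3p, at −0.06.

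Of the retina, lens and sensory cell miRNAs, 4 of 5 were tested and 0 were called in either direction, with a median of −0.75. With 3.27% of all 336 called, a count of 0 among so few says nothing of the list, and the same holds for the endocrine, brain, germ cell, red cell and liver lists at this age. *bta-miR-204*, a miRNA of lens and pigment epithelium, had 135 CPM in EX and 84.6 in FC (log2 fold change 0.38, FDR 0.592). *bta-miR-182* and *bta-miR-183*, of the photoreceptors, had 16.5 and 10.9 CPM in EX against 33.5 and 23.8 in FC (FDR 0.172 and 0.444). Of the endocrine miRNAs, 0 of 2 were called. *bta-miR-375*, the main miRNA of islet cells, had 1635 CPM in EX and 1559 in FC at 20 months.

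Of the 14 brain miRNAs, 6 were tested and 0 were called, with a median of −0.70. The nerve cell miRNAs *bta-miR-124a* and *bta-miR-124b* had mean levels of at most 0.969 CPM in any group. Of the 5 germ and ciliated cell miRNAs 1 was tested, *bta-miR-34c*, at −0.85 (FDR 0.717). In none of these lists did a member reach the log2 fold change of 2.31 of *bta-miR-184*.

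The blood cell and liver miRNAs were read in the same way. Of the 3 white cell miRNAs, *bta-miR-342* was called higher in EX at 20 months (2.08% of all 336 were), *bta-miR-150* had a log2 fold change of 0.93 (FDR 0.00319) that stayed under the limit of 1, and *bta-miR-223*, of myeloid cells, had −0.54. The 3 red cell miRNAs had a median of 0.80 and 0 were called. Their summed level ran from 25390 to 75485 CPM in EX and from 10720 to 45477 CPM in FC. In liver, 0 of 2 were called, with a median of −0.26. From 25 to 30 months in EX, where 3.44% of 291 miRNAs were called higher and 7.22% lower (10.7% in all), 2 of the 3 red cell miRNAs and 2 of the 3 white cell miRNAs were lower. The summed white cell level lay between 140375 and 334344 CPM at 25 months and between 39060 and 54089 CPM at 30 months. The part of these cells in the level of *bta-miR-184* was not tested. The epithelial list had 0 of 8 called in that comparison, with a median of 0.62 against −0.45 over all, and 6 of the 8 lay above 0. Its member *bta-miR-31* went the other way, with 317 CPM at 25 months and 97.2 at 30 months. It did not pass (log2 fold change −2.15, edgeR FDR 0.0905). Of the endocrine miRNAs *bta-miR-375* was higher. Of the retina, lens and sensory cell list 0 of 4 were called, with a median of −0.69, and *bta-miR-96* was at 0 in all 3 EX libraries at 30 months. The EX means of *bta-miR-182* and *bta-miR-183* were higher at 30 than at 25 months (41.5 against 13.7 and 45.5 against 15.6 CPM). Each had 1 EX library at 0 at 30 months. The EX means of *bta-miR-204* and *bta-miR-211* were lower at 30 months. Of the brain list 0 of 6 were called, with a median of −0.30, where *bta-miR-132*, also at 0 in all 3, had an FDR of 0.102. Of the germ and ciliated cell miRNAs 0 of 1 and of the liver miRNAs 0 of 2 were called. In FC from 20 to 30 months, where 2.37% of all 337 miRNAs were higher and 4.15% lower, 2 of 8 epithelial miRNAs were higher, *bta-miR-141* and *bta-miR-200a*. The epithelial *bta-miR-31* had a log2 fold change of −1.83 there and did not pass (edgeR FDR 0.0519). In the same comparison 2 of 3 white cell miRNAs were lower, *bta-miR-150* (log2 fold change −2.78) and *bta-miR-342* (−1.36), as was 1 of 2 liver miRNAs, *bta-miR-885* (−7.69), and in the other lists 0 were called.

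**Figure D5:**
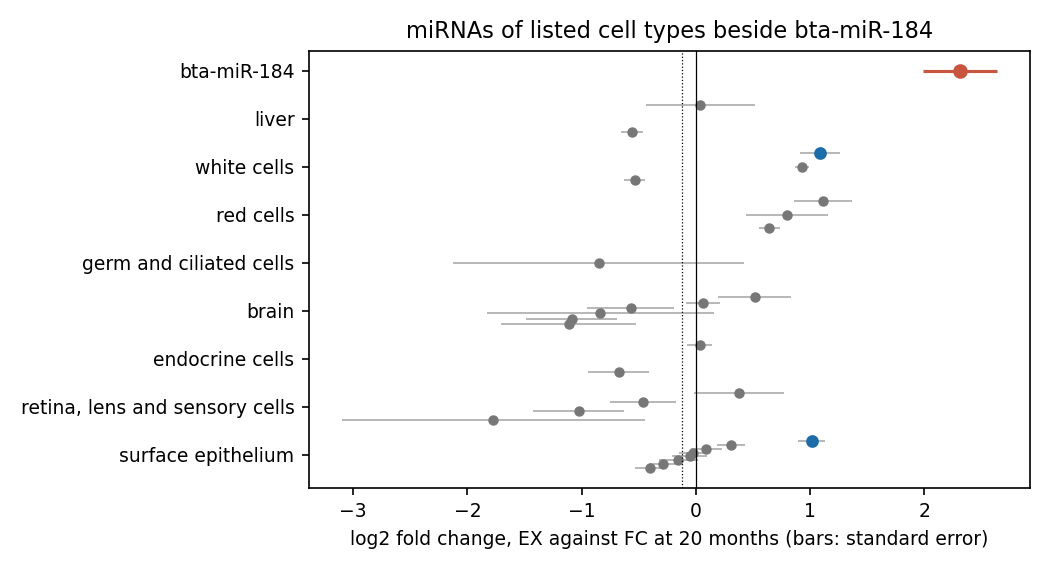
Log2 fold change of EX against FC at 20 months with its standard error (bars) for the 29 tested miRNAs of the cell type lists and for *bta-miR-184* (red). Blue points were called, grey ones were not, and the dotted line is the median of all 336 miRNAs (−0.12); *bta-miR-184* at 2.31 lies right of all list members.

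The letters GGAG and CCCU have been described in miRNAs that the protein hnRNPA2B1 carries into exosomes, and GGCU in miRNAs bound by SYNCRIP. They were searched on the miRNA strand alone. *bta-miR-184* holds GGAG at bases 6 to 9, which overlaps its seed, and neither of the others. Of the 1071 mature miRNAs, 126 hold GGAG (11.8%), 93 hold CCCU (8.68%) and 104 hold GGCU (9.71%). Of 31 tested miRNAs with GGAG, 3 were higher in EX at 20 months, *bta-miR-184* among them, and 1 was lower, where 2.08% of all 336 were higher and 1.19% lower. Their median log2 fold change was −0.02, against −0.12 over all. Of 36 with CCCU 0 were called, with a median of 0.15, and of 30 with GGCU 1 was higher, with a median of −0.24. A match is a description of the letters and not of a protein bound to them.

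The pattern of *bta-miR-184* over the 18 libraries was compared with those of 391 other miRNAs by the Pearson correlation of log2(CPM + 1). The 5 most like it were *bta-miR-30b-5p* (r = 0.81), *bta-miR-2285j* (0.81), *bta-miR-545-3p* (0.79), *bta-miR-6120-3p* (0.78) and *bta-miR-197* (0.76). The median over all was 0.11. The 18 points share steers, plasma samples and depth, and the zeros at 30 months weigh heavily, so these values are descriptive. In the 12 libraries at 20 and 25 months alone, the most alike was *candidate-miR-40* (r = 0.88), which had a mean of 4880 CPM in EX at 30 months. There *bta-miR-6120-3p* had a correlation of 0.83, *bta-miR-30b-5p* of 0.40 and *bta-miR-545-3p* of −0.10.

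What the 5 have in common with *bta-miR-184* is a lower mean at 30 months, in FC as well as in EX. The likeness was taken over libraries that include its zeros, so this was in part built in. In FC the libraries of *bta-miR-184* at 20 and 30 months overlapped, and steer 3 was higher at 30 months (28.7 against 14.2 CPM). Those of *bta-miR-2285j*, *bta-miR-545-3p* and *bta-miR-6120-3p* overlapped between these ages as well. The FC means of all 5, like that of *bta-miR-184*, were lowest at 30 months, for example 318, 438 and 134 CPM for *bta-miR-30b-5p* and 454.5, 617 and 333 CPM for *bta-miR-197* at 20, 25 and 30 months. *bta-miR-6120-3p*, *bta-miR-545-3p* and *bta-miR-2285j* had 0 counts in all 3 EX libraries at 30 months. In EX, *bta-miR-30b-5p* had 509 ± 79.6 CPM at 25 months and 92.7 ± 37.6 at 30 months, and *bta-miR-197* had 815 ± 143 and 249.5 ± 83.3 CPM (mean ± SD, n = 3 each). *bta-miR-6120-3p* had 34.6, 27.4 and 25.2 CPM in EX in steers 1, 2 and 3 at 20 months and 69.3, 25.6 and 20.9 CPM at 25 months. Steer 1 was thus the highest at 25 months for both miRNAs, but in steers 2 and 3 *bta-miR-6120-3p* was lower at 25 than at 20 months, where *bta-miR-184* was higher. The FC mean of *bta-miR-6120-3p* at 25 months was 15.1 CPM. The counts of *bta-miR-30b-5p* and *bta-miR-2285j* include reads shared with other miRNAs. The sequences of the 5 show no seed in common with *bta-miR-184*.

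bta-miR-30b-5p: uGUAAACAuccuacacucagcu
bta-miR-2285j: aAAAACCAgaacgaacuuuuug
bta-miR-545-3p: aUCAACAAacauuuauugugug
bta-miR-6120-3p: uAUGUUGGacaacguggauagc
bta-miR-197: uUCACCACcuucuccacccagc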

How the data were processed

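Reads were trimmed by the authors with Cutadapt 5.0 and Trimmomatic 0.39, mapped to a Japanese Black genome and assigned to miRBase and candidate miRNAs with miRDeep2. The authors deposited estimated counts per miRNA and CPM values from the same counts, 1 column per library. In 4 FC libraries, the counts from *bta-miR-6526* or *bta-miR-6528* downward did not match the CPM of their own row (tolerance 0.001 relative or 0.02 counts) and were recomputed from it, which leaves *bta-miR-184* as deposited. Within each group of fraction and age no library was a copy of another (18 pairs compared).

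After rounding, miRNAs above 5 CPM in 3 or more of the 6 libraries compared were kept, TMM-normalized and fitted with edgeR 4.0.16 in R 4.3.3 (quasi-likelihood, steer as block). Calls needed FDR under 0.05 and |log2 fold change| > 1, and a standard error is the size of the log2 fold change over √F. The labels number the libraries 1 to 3, and the study gives the same 3 steers for each age. For EX and FC at 20 months, same-numbered libraries deviated together (r = 0.38, 0.48 and 0.29), and for FC at 20 and 30 months less so (r = 0.14, 0.23 and 0.01). DESeq2 1.42.0 was an alternative. The method was tested on simulated counts. The most common count is the whole number above 5 with the most whole counts within a factor of 1.25, or the median of such numbers where several tie. Named miRNAs are the 5 most alike, the 5 highest at 0 in EX at 30 months, neighbours in order and list members. *bta-miR-184*, the lists and tests were chosen with earlier results of these data known.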

Additional observations from a re-analysis of the deposited data

How the results depend on the processing

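For *bta-miR-184* in EX against FC at 20 months, all 11 alternatives gave a higher level in EX, with log2 fold changes of 2.12 to 2.64, which is also the range when 1 steer was left out. The call was lost without steer as a block (2.30), with all 18 libraries in the fit (2.33, where the standard error was 1.18) and without steer 1 or steer 2, and it was kept in the other 7. Over all alternatives the FDR ran from 2.9e-08 to 0.648. The number of miRNAs called, 11, became 6 with DESeq2 size factors, 19 with DESeq2, 1 without the replicate block, 4 with all 18 libraries and 2 to 12 with 1 steer left out.

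For FC at 30 against 20 months, the log2 fold change of *bta-miR-184* was below 0 in all 11 alternatives. With 1 steer left out it ran from −4.11 to −0.21, and of these it passed the threshold when steer 3 was the one left out. Without the replicate block it was −0.82, with no call. The number called, 22, became 41 with the likelihood ratio test, 50 with DESeq2, 59 with the rows of the count table as deposited (added after the data were seen) and 0 to 37 with 1 steer left out. The 0 came from edgeR without steer 2, where 63 miRNAs had an unadjusted p under 0.05. Of the 5 miRNAs most like *bta-miR-184*, 3 stayed among the first 5 with Spearman's correlation, 4 with a pseudocount of 10, 2 with a filter of 50 CPM and 1 in the 12 libraries at 20 and 25 months. Leaving out steer 1 moved the EX to FC ratio of means at 25 months from 22.3 to 10.4, and the mean in EX from 336 to 152 CPM. The number of steers and the smaller library totals at 30 months limit what can be said of low levels there.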
